A study of Mus musculus with 16 samples.

Results

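The 37 genes of the mouse mitochondrial genome were followed in ear skin RNA of mice on a high-fat diet (HFD) or a normal diet (ND), with and without the phorbol ester PMA. They were chosen as all rows of the deposited gene count table whose symbol begins with mt-, which gave 37 of 48440 genes: 13 mRNAs, 2 rRNAs and 22 tRNAs. The libraries came from B6 mice in 4 groups of 4: HFD-fed with PMA (HFD_PMA), ND-fed with PMA (ND_PMA), HFD-fed untreated (HFD_cont) and ND-fed untreated (ND_cont). Per the labels' protocols the high-fat diet lasted 8 weeks, PMA was given at 200 ng per ear, and ears were taken 24 h later. The sources used here do not give the animals' age or sex, or whether untreated ears received a solvent. The design text counts 4 mice in each group. Library totals ran from 7739487 to 15571389 counts. The library IDs in the labels fall into a pair of series whose meaning is not stated: RHS, to which HFD_cont replicate 1 and the 4 ND_cont libraries belong, and RHP, which covers the remaining 11. The PMA effect in ND mice therefore cannot be told apart from this ID series. The diet effect in untreated skin, the PMA effect in HFD mice and the difference between diets in the PMA effect share it in part. Markers of keratinocytes (5 of 5) and dermal fibroblasts (5 of 5) were all counted in each of the 16 libraries of this skin sample set.

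The mitochondrial genome is a small circle that is transcribed from both strands into long precursor RNAs, which are cut at the tRNAs to release mRNAs and rRNAs. Its 13 mRNAs encode core subunits of the respiratory chain: mt-Nd1 to mt-Nd6 and mt-Nd4l of complex I, mt-Cytb of complex III, mt-Co1 to mt-Co3 of complex IV, and mt-Atp6 and mt-Atp8 of complex V, the ATP synthase. Mt-Rnr1 and mt-Rnr2 are the RNAs of the small and the large subunit of the mitochondrial ribosome. All other subunits, the polymerase and the ribosomal proteins are encoded in the nucleus. PMA is a phorbol ester that switches on protein kinase C, and painting it on skin is a standard way to inflame it.

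The mean share of counts from this genome was higher in HFD than in ND skin in both pairs of groups, by 0.8133 percentage points with PMA and 0.7969 without, and single libraries overlapped. In untreated skin 4 of 17 tested transcripts were higher in HFD mice (mt-Rnr2, mt-Nd1, mt-Co1 and mt-Atp6), where 3.93% of all genes tested were called, and in PMA-treated skin 1 of 17 (mt-Nd1), where 2.20% were. PMA against untreated called 0 of 17 in either diet, where 11.9% (HFD) and 12.9% (ND) of all genes were called, while counts of mt-Nd1 per count of mt-Rnr2 stood at 1.586 to 2.398 in PMA-treated and 1.121 to 1.369 in untreated libraries. With the library ID series as a covariate, 0 of 17 were called in untreated skin.

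Sequences of the members are those of GENCODE M21 on GRCm38, the build named in the submitters' processing notes. All 37 gene IDs matched that annotation with their version number. The libraries were made by SMART-Seq2, which primes on poly(A) tails, so the annotated gene ends are shown for the transcripts on which the results turn. The RNA ends that carry the tails were not mapped. The last 36 bases are printed 5′ to 3′ on the sense strand. Capitals mark the last codon, or the bases left after the last whole codon, and the rRNA has none.
mt-Nd1: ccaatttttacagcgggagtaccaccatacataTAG
mt-Co1: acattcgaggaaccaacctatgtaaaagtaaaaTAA
mt-Atp6: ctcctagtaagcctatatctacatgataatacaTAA
mt-Cytb: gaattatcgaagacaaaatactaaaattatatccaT
mt-Rnr2: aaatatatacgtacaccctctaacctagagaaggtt
These stretches lie at chrM:3672-3707, chrM:6837-6872, chrM:8572-8607, chrM:15253-15288 and chrM:2640-2675, all on the plus strand. As annotated, mt-Nd1, mt-Co1 and mt-Atp6 end in a complete stop codon, whereas mt-Cytb ends in a single T. The stop codon of mt-Cytb is known to be completed by the added tail. In the annotation mt-Nd1 shares 2 bases with the tRNA mt-Ti, mt-Co1 shares 3 with mt-Ts1, and mt-Atp6 shares 1 with mt-Co3. An annotated end therefore need not be the end of the RNA. Of the 13 mRNAs, mt-Nd6 alone is encoded on the minus strand (chrM:13552-14070). Its end overlaps that of mt-Nd5 by 14 bases, and SMART-Seq2 keeps no strand, so reads from both strands cannot be told apart there.

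A nuclear copy of a stretch of this genome sits on chromosome 1 and bears on which members could be counted. Between chr1:24611535-24616197 GENCODE M21 lists 7 pseudogenes on the minus strand, in the same order as the genes in chrM:6381-11043. Over 4137 aligned bases the 7 copies differ from their mitochondrial genes at 1 base (A1066T in the copy of mt-Co1), and 6 of them have no mismatch. The stretch holds 6 mRNAs whole (mt-Co2, mt-Atp8, mt-Atp6, mt-Co3, mt-Nd3 and mt-Nd4l) and 5 tRNAs, and parts of mt-Co1 and mt-Nd4. The following windows of 60 bases show it for cytochrome c oxidase subunits. Capitals mark bases that differ from the mitochondrial gene.
mt-Co2: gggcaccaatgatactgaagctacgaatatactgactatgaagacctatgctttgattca
Gm28661: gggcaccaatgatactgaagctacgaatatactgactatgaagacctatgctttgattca
mt-Co1: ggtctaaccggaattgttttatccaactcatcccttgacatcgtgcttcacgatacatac
Gm29216: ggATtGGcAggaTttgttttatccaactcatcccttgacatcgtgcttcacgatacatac
Gm13340: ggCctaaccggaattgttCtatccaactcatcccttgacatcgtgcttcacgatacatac
The first pair is chrM:7313-7372 and chr1:24615206-24615265, and the 60 bases are identical. The mt-Co1 window is chrM:6381-6440, with its copies at chr1:24616138-24616197 and chr2:22588535-22588594, both on the minus strand. Counted from 1 at the start of mt-Co1, Gm29216 carries T1056A, C1057T, A1059G, A1060G, C1062A and A1066T, of which all but the last lie before the aligned stretch begins. The chromosome 2 copy Gm13340 carries T1056C and T1072C in this window and is 97.61% identical to mt-Co1 over 1545 bases.

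A read of 100 bases from most of this stretch would match both genomes exactly. Of all 100-base windows, 99.5% in mt-Co2, 99.5% in mt-Atp6, 99.9% in mt-Co3, 97.6% in mt-Nd3 and 98.5% in mt-Nd4l occur unchanged in an annotated nuclear copy, against 60.8% in mt-Nd4, 30.8% in mt-Co1 and 3.2% in mt-Nd2. The share was 0% for mt-Nd1, mt-Nd5, mt-Nd6, mt-Cytb, mt-Rnr1 and mt-Rnr2. For mt-Atp8 it was also 0%, but no copy transcript is annotated over its place in the chromosome 1 stretch. The sources used here do not state how reads with several matches were counted.

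Levels are given as CPM, counts scaled to the TMM-adjusted library total, and between genes as CPM per kb of the gene length in the deposited table. Over the 16 libraries the most abundant member per kb was mt-Cytb, with a mean of 5809 CPM per kb, followed by mt-Nd1 with 4912, mt-Co1 with 3549 and mt-Rnr2 with 1870 CPM per kb. Then came mt-Nd4 with 657.3, mt-Nd5 with 521, mt-Nd2 with 212.4 and mt-Nd6 with 165.6 CPM per kb. The ranges over libraries of the first 3 overlapped: 3320 to 8918 for mt-Cytb, 2630 to 8558 for mt-Nd1 and 2267 to 4997 CPM per kb for mt-Co1. Mt-Cytb, mt-Co1, mt-Nd1 and mt-Rnr2 together took 86.67% to 91.55% of the mitochondrial counts of a library.

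The 6 mRNAs wholly inside the chromosome 1 stretch had the lowest levels of all mRNAs. Their means ran from 3.753 CPM per kb (mt-Nd4l) to 30.36 CPM per kb (mt-Atp6), against 165.6 to 5809 CPM per kb for the other 7 mRNAs. The annotated copies were themselves counted: Gm10925 had 4665 counts over all libraries against 3656 for mt-Atp6, and Gm28437 had 2103 against 1602 for mt-Co3. The copies of mt-Co2 summed to 1079 counts against 505 for the mitochondrial gene, and that of mt-Nd4l had 888 against 194. Mt-Nd3 was the other way round, with 25 counts in its copy Gm28438 against 435, and mt-Atp8 has no annotated copy. As the counting of shared reads is not known, levels of these 6 mRNAs are uncertain, and their ratio to other members is not a ratio of RNA amounts. The same holds in part for mt-Nd4 and mt-Co1, with 60.8% and 30.8% of their 100-base windows shared. Their CPM per kb uses the full gene length. Their place in the ranking above and the ratios and fractions that use them below carry this limit.

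**Figure D1:**
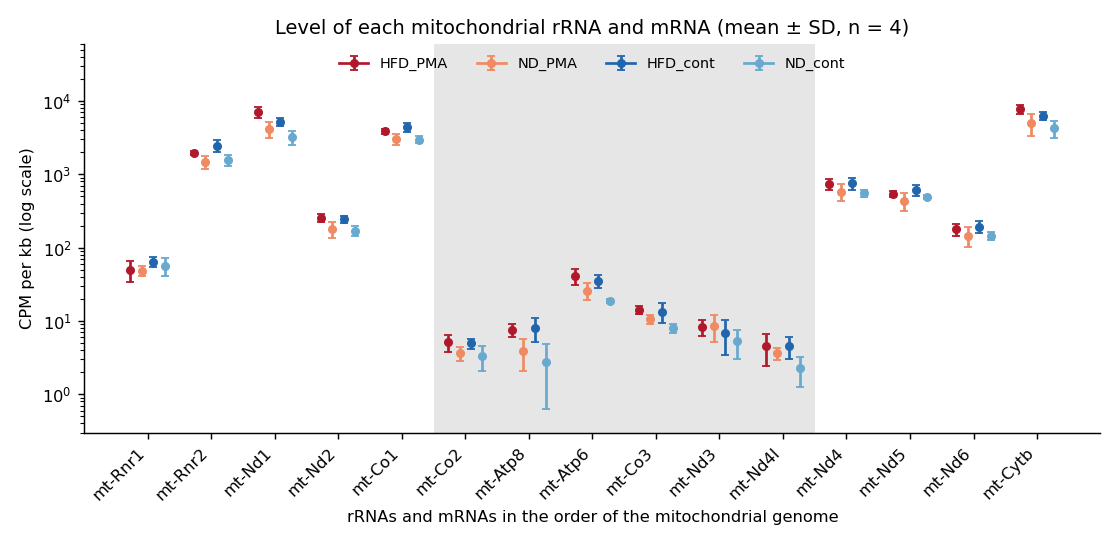
Mean CPM per kb ± SD (log scale) of the 2 rRNAs and 13 mRNAs in the order of the mitochondrial genome, for the 4 groups (n = 4 libraries each), with the mRNAs that lie wholly in the stretch copied to chromosome 1 shaded. The shaded mRNAs have means of 3.753 to 30.36 CPM per kb over the 16 libraries and the other mRNAs of 165.6 to 5809 CPM per kb.

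The rRNAs were unequal. Mt-Rnr2 had 518706 counts over the 16 libraries and mt-Rnr1 9025, and the ratio of mt-Rnr2 to mt-Rnr1 counts averaged 70.35 ± 19.2 in HFD_PMA, 50.35 ± 10.7 in ND_PMA, 64.11 ± 13.2 in HFD_cont and 50.39 ± 20.7 in ND_cont libraries (SD, n = 4). Among the members compared, mt-Rnr1 also followed mt-Co1 least. The Pearson correlation of its log2 CPM with that of mt-Co1 over the 16 libraries was 0.214, the lowest of the members with a mean of at least 5 CPM, against 0.965 for mt-Rnr2, 0.935 for mt-Nd4, 0.898 for mt-Nd6, 0.799 for mt-Cytb and 0.77 for mt-Nd1. These libraries share their scaling, so the values describe likeness of pattern only.

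The tRNAs were near the lower limit of what was counted. Together the 22 tRNAs took 16 to 69 counts in a library. Mt-Tf, mt-Tv, mt-Ti, mt-Ts1, mt-Td and mt-Tk had 0 counts in every library, which allows up to 3 counts or 0.193 to 0.388 CPM each, counting error only. The other 16 had counts in at least 2 libraries, and mt-Tm and mt-Tn, which carry methionine and asparagine, were counted often enough to be tested. Both are printed whole, since they are the tRNAs with a test.
mt-Tm: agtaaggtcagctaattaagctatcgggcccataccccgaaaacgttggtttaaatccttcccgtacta
mt-Tn: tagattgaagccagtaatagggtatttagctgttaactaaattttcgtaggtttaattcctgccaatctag
They lie at chrM:3845-3913 on the plus strand and chrM:5089-5159 on the minus strand. Mt-Tl1, a tRNA for leucine, lies directly between mt-Rnr2 and mt-Nd1 without a base to spare. It had 31 counts in the HFD_PMA libraries, 16 in ND_PMA, 8 in HFD_cont and 0 in ND_cont. It did not pass the low-count filter of the fit used here.

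The share of library counts in mitochondrial genes is the part of the counted reads assigned to these 37 genes. The 6 mRNAs wholly inside the chromosome 1 stretch add little to it, with means of 3.753 to 30.36 CPM per kb. How shared reads were counted is not known, so the share need not be the part of polyadenylated RNA from this genome. In HFD_PMA libraries the 37 genes took 2.284%, 2.64%, 2.615% and 3.058% of the counts, and in ND_PMA libraries 2.444%, 1.354%, 1.776% and 1.77%. HFD_cont libraries had 2.094%, 2.553%, 2.615% and 2.93%, and ND_cont libraries 2.183%, 1.758%, 1.581% and 1.483% (replicates 1 to 4 in each group). In both pairs the HFD libraries were the higher ones, and in both pairs replicate 1 of the HFD group lay below replicate 1 of the ND group, so that the groups overlapped. The means were 2.649% ± 0.317 in HFD_PMA, 1.836% ± 0.451 in ND_PMA, 2.548% ± 0.344 in HFD_cont and 1.751% ± 0.309 in ND_cont libraries (SD, n = 4 each). The exact 95% binomial interval of a single library reached at most 0.012 percentage points to either side, less than the SD of any group. Such a share cannot tell fewer cells of a type from less RNA per cell.

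HFD minus ND differences in the share were 0.8133 percentage points in PMA-treated and 0.7969 in untreated skin. With any 1 library left out they stayed between 0.6526 and 1.016 and between 0.6696 and 0.9481 percentage points. Within the RHS series the untreated comparison rests on HFD_cont replicate 1 alone, at 2.094% against 1.483% to 2.183% in ND_cont, inside the range of ND_cont. Within the RHP series the PMA effect in HFD mice was -0.0498 percentage points, against 0.1014 over all 8 libraries, both smaller than the SD of either group.

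**Figure D2:**
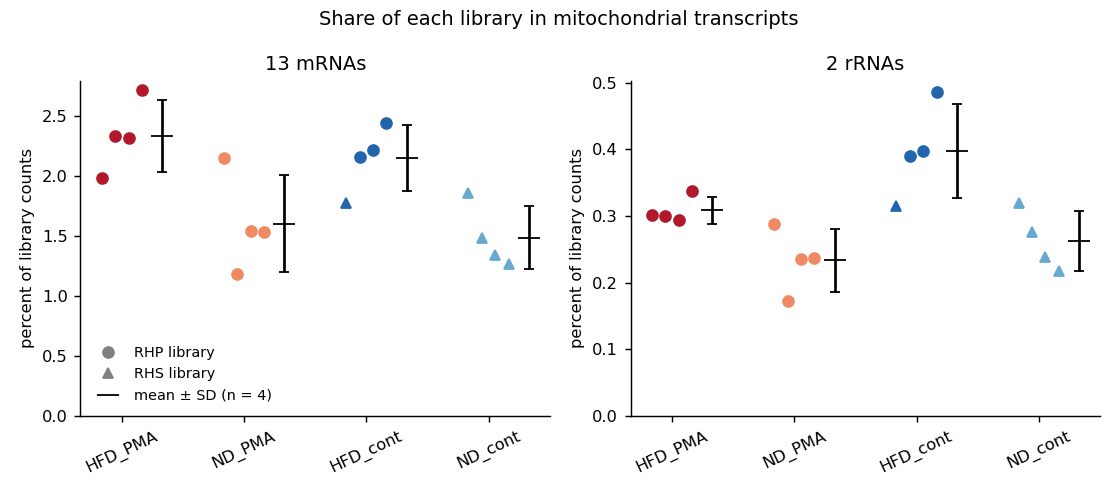
Percent of library counts in the 13 mitochondrial mRNAs (left) and the 2 rRNAs (right), with each library as a point, RHP as circles and RHS as triangles, and group means ± SD in black. The mRNA means are 2.34% and 1.602% in HFD_PMA and ND_PMA, and 2.15% and 1.488% in HFD_cont and ND_cont.

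The rRNAs and mRNAs showed the same order by diet. The mRNA share averaged 2.34% ± 0.301 in HFD_PMA and 1.602% ± 0.405 in ND_PMA libraries, and 2.15% ± 0.276 in HFD_cont and 1.488% ± 0.265 in ND_cont libraries. The rRNA share averaged 0.3085% ± 0.0201 in HFD_PMA and 0.2335% ± 0.0476 in ND_PMA libraries, without overlap. In untreated skin it was 0.3975% ± 0.0704 in HFD_cont and 0.263% ± 0.045 in ND_cont libraries, with HFD_cont replicate 1 at 0.3152% below ND_cont replicate 1 at 0.3199%.

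For single genes, 1 fit with edgeR's quasi-likelihood test covered 17604 genes that passed a filter on low counts, and p-values were Benjamini-Hochberg adjusted over all of them, with calls below 0.05. The filter kept 17 members: the 13 mRNAs, the 2 rRNAs, mt-Tm and mt-Tn. The other 20 tRNAs were not tested. The filter required counts in a number of libraries set by group size, so a member could pass through the group in which it was highest. Mt-Atp8, mt-Tm and mt-Tn were close to this limit. They reached at most 0.9459, 0.8639 and 0.7689 CPM in ND_cont libraries, and up to 2.498, 1.52 and 1.359 CPM in HFD_cont libraries. They are included in the counts and medians over the 17 members below, and add no separate support to them.

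In untreated skin the fit asked how the diet alone altered these transcripts. All 17 members were estimated higher in HFD mice and 4 passed the threshold, where 3.93% of all genes tested were called in either direction, 2.87% higher and 1.06% lower. The median log2 fold change of the 17 was 0.586, against -0.0227 over all genes tested. Of the 17 members, 7 had HFD_cont values that did not overlap those of ND_cont, where 7.18% of all genes did so in that direction and 5.46% in the other. Among the 7 were mt-Tm and mt-Atp8, which lay near the limit of the filter and could pass it through HFD libraries.

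Mt-Nd1, a subunit of the proton-pumping arm of complex I (ENSMUSG00000064341.1, chrM:2751-3707), stood at 4168, 4757, 5281 and 5704 CPM in HFD_cont libraries and at 3862, 3234, 2593 and 2517 CPM in ND_cont libraries. Every HFD_cont library lay above every ND_cont library. The log2 fold change was 0.71 ± 0.173 (SE, edgeR BH-adjusted p = 0.025). Mt-Co1, the catalytic subunit of cytochrome c oxidase (ENSMUSG00000064351.1, chrM:5328-6872), had 5563, 6769, 6997 and 7720 CPM in HFD_cont and 5245, 4329, 4716 and 4098 CPM in ND_cont libraries. Here too the groups did not overlap, although HFD_cont replicate 1 lay close above ND_cont replicate 1 (log2 fold change 0.56 ± 0.132, edgeR BH-adjusted p = 0.0204).

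The large-subunit rRNA mt-Rnr2 (ENSMUSG00000064339.1, chrM:1094-2675) had 3044, 3872, 3932 and 4755 CPM in HFD_cont and 3004, 2628, 2313 and 2035 CPM in ND_cont libraries. The lowest HFD_cont and the highest ND_cont library nearly touched (log2 fold change 0.64 ± 0.154, edgeR BH-adjusted p = 0.0218). Mt-Atp6, part of the proton channel of the ATP synthase (ENSMUSG00000064357.1, chrM:7927-8607), had 17.55, 24.04, 28.91 and 26.39 CPM in HFD_cont and 13.33, 13.91, 12.21 and 11.89 CPM in ND_cont libraries. Its groups did not overlap (log2 fold change 0.92 ± 0.22, adjusted p = 0.0224 by edgeR). Nearly all of its sequence is shared with Gm10925, which was also higher in HFD_cont (log2 fold change 1.04 ± 0.247, edgeR BH-adjusted p = 0.0202).

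HFD_cont replicate 1, the only HFD library of the RHS series, was the lowest of its group for each of these 4 transcripts. With the ID series as a covariate 0 of 17 members were called in untreated skin, and the log2 fold changes were 0.45 for mt-Nd1 (adjusted p = 0.575), 0.28 for mt-Co1 (0.675), 0.29 for mt-Rnr2 (0.724) and 0.45 for mt-Atp6 (0.681), all by edgeR. Within RHS alone, 1 library against 4 and assumed to vary like the others, they were 0.46, 0.28, 0.29 and 0.46, with adjusted p of 0.591 to 0.732. No member was called without HFD_cont replicate 4 or without ND_cont replicate 4, and 1 was called without HFD_cont replicate 3 or without ND_cont replicate 3. HFD_cont and ND_cont also differed in keratinocyte markers (Krt5, Krt14, Krt1, Krt10 and Trp63): 4 of 5 were called higher, and their summed level was 18920 to 23180 CPM in HFD_cont against 12040 to 16240 CPM in ND_cont libraries, with no marker at 0. The summed level in the RHS library HFD_cont replicate 1 was 21990 CPM. Dermal fibroblast markers summed to 4612 to 5435 CPM in HFD_cont against 7123 to 8962 CPM in ND_cont, with 3 of 5 called lower. Chondrocyte markers summed to 256 to 316.9 CPM in HFD_cont and 361.5 to 499 CPM in ND_cont libraries with 0 of 5 called, and macrophage markers to 178.6 to 271 CPM in HFD_cont and 296.1 to 388.5 CPM in ND_cont libraries with 1 of 4 called lower. Skeletal muscle markers summed to 4500 to 10420 CPM in HFD_cont and 6042 to 15760 CPM in ND_cont libraries, with 0 of 10 called. HFD_cont replicate 1 had 4500 CPM. White adipocyte markers summed to 233.5 to 389.6 CPM in HFD_cont and 386.7 to 550.5 CPM in ND_cont, with 1 of 5 called lower. Hair shaft markers summed to 10.68 to 429 CPM in HFD_cont and 0.2468 to 5.863 CPM in ND_cont, with 0 of 4 called. The part of these cell type markers in the mitochondrial result was not tested.

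Of the other 13 members none passed in untreated skin. Mt-Cytb, the subunit of complex III, had 5751, 7507, 7563 and 7713 CPM in HFD_cont and 6589, 4963, 4017 and 3798 CPM in ND_cont libraries, with replicate 1 of each group crossing over (log2 fold change 0.56 ± 0.196, edgeR BH-adjusted p = 0.128). Mt-Nd2 had 213.9 to 282.5 CPM in HFD_cont and 143.8 to 200.3 CPM in ND_cont libraries, without overlap (log2 fold change 0.51 ± 0.151, edgeR BH-adjusted p = 0.0623). Mt-Nd4, mt-Nd5 and mt-Nd6, the remaining well-counted subunits of complex I, had estimates of 0.46, 0.32 and 0.43. Mt-Rnr1 had the smallest, 0.19 ± 0.214. Mt-Atp8, mt-Nd4l and the tRNA mt-Tm had the largest estimates, 1.54 ± 0.782, 1.01 ± 0.642 and 1.26 ± 0.651, but rest on 0 to 23 counts in an untreated library.

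**Figure D3:**
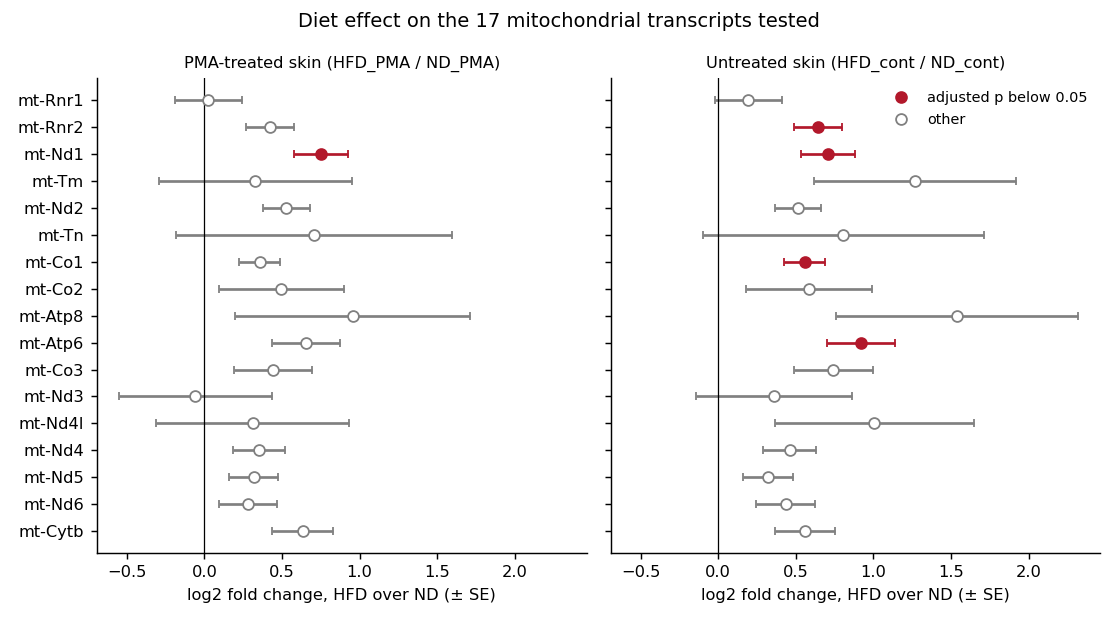
log2 fold change of HFD over ND ± SE for the 17 tested members in genome order, in PMA-treated skin (left) and untreated skin (right), with filled red points for an edgeR BH-adjusted p below 0.05. In PMA-treated skin 16 of 17 estimates and in untreated skin 17 of 17 are above 0, and 1 and 4 members pass the threshold.

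In PMA-treated skin, where all 8 libraries are of the RHP series, the fit asked how the diet altered these transcripts after the irritant. Of the 17 members 16 were estimated higher in HFD mice and 1 passed the threshold, where 2.20% of all genes tested were called in either direction, 0.943% higher and 1.26% lower. The median log2 fold change of the members was 0.421, against -0.0333 over all genes. Values did not overlap for 3 members (mt-Rnr2, mt-Atp8 and mt-Co3), where 3.93% of all genes were higher in HFD without overlap and 4.71% lower. Of these 3, mt-Atp8 lay near the limit of the filter and could pass it through HFD libraries.

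Mt-Nd1 was the member called. It had 5389, 6980, 6462 and 8190 CPM in HFD_PMA and 5404, 2985, 3901 and 3782 CPM in ND_PMA libraries. ND_PMA replicate 1 reached the level of the lowest HFD_PMA library, and the other 3 ND_PMA libraries lay below all of HFD_PMA. The log2 fold change was 0.75 ± 0.173 (SE, edgeR BH-adjusted p = 0.0267), close to its estimate in untreated skin. The call was lost without HFD_PMA replicate 2 or 4 or without ND_PMA replicate 2, 3 or 4, with adjusted p up to 0.07, and in a fit of these 8 libraries alone (adjusted p = 0.0589, edgeR).

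ND_PMA replicate 1 was high for other members too. Mt-Cytb had 7102, 9123, 9094 and 10200 CPM in HFD_PMA and 8485, 4097, 5304 and 5029 CPM in ND_PMA libraries (log2 fold change 0.63 ± 0.197, edgeR BH-adjusted p = 0.101). Mt-Nd2 had 232.4 to 304.5 CPM in HFD_PMA and 147.1 to 250.6 CPM in ND_PMA libraries (log2 fold change 0.53 ± 0.151, edgeR BH-adjusted p = 0.0737). Without ND_PMA replicate 1, 3 members were called. Mt-Rnr2 had 2977, 3078, 2983 and 3415 CPM in HFD_PMA and 2850, 1685, 2384 and 2384 CPM in ND_PMA libraries (log2 fold change 0.42 ± 0.154, edgeR BH-adjusted p = 0.168).

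Mt-Co1 had 5327, 5856, 5966 and 6600 CPM in HFD_PMA and 5337, 3503, 4726 and 4974 CPM in ND_PMA libraries, and mt-Atp6 had 26.77, 25.12, 22.47 and 37.36 CPM in HFD_PMA and 24.22, 13.77, 16.9 and 15.93 CPM in ND_PMA libraries. In both, ND_PMA replicate 1 lay just within the range of HFD_PMA and the other 3 ND_PMA libraries below it. The estimates of mt-Co1 and mt-Atp6 were 0.36 ± 0.132 and 0.66 ± 0.217 and did not pass (edgeR BH-adjusted p = 0.171 and 0.125). Mt-Nd4, mt-Nd5 and mt-Nd6 were at 0.35, 0.32 and 0.28. Mt-Rnr1 and mt-Nd3 lay near 0, at 0.02 ± 0.215 and -0.06 ± 0.492, and changed sign in some of the other fits. Keratinocyte markers summed to 25040 to 28110 CPM in HFD_PMA and 19490 to 22830 CPM in ND_PMA libraries with 1 of 5 called higher, and dermal fibroblast markers to 3310 to 5117 CPM in HFD_PMA and 5289 to 7141 CPM in ND_PMA libraries with 2 of 5 called lower. Skeletal muscle markers, from a tissue rich in mitochondria, summed to 4955 to 5997 CPM in HFD_PMA and 5524 to 11780 CPM in ND_PMA libraries, with 0 of 10 called and 10 of 10 estimates below 0. Chondrocyte markers summed to 169.3 to 227.8 CPM in HFD_PMA and 283 to 442.3 CPM in ND_PMA libraries, without overlap, with 4 of 5 called lower (Col2a1, Col9a1, Acan and Comp). Macrophage markers summed to 200.7 to 369.2 CPM in HFD_PMA and 384.1 to 616.2 CPM in ND_PMA libraries, with 2 of 4 called lower (Cd163 and Csf1r). What these markers contribute was not tested.

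**Figure D4:**
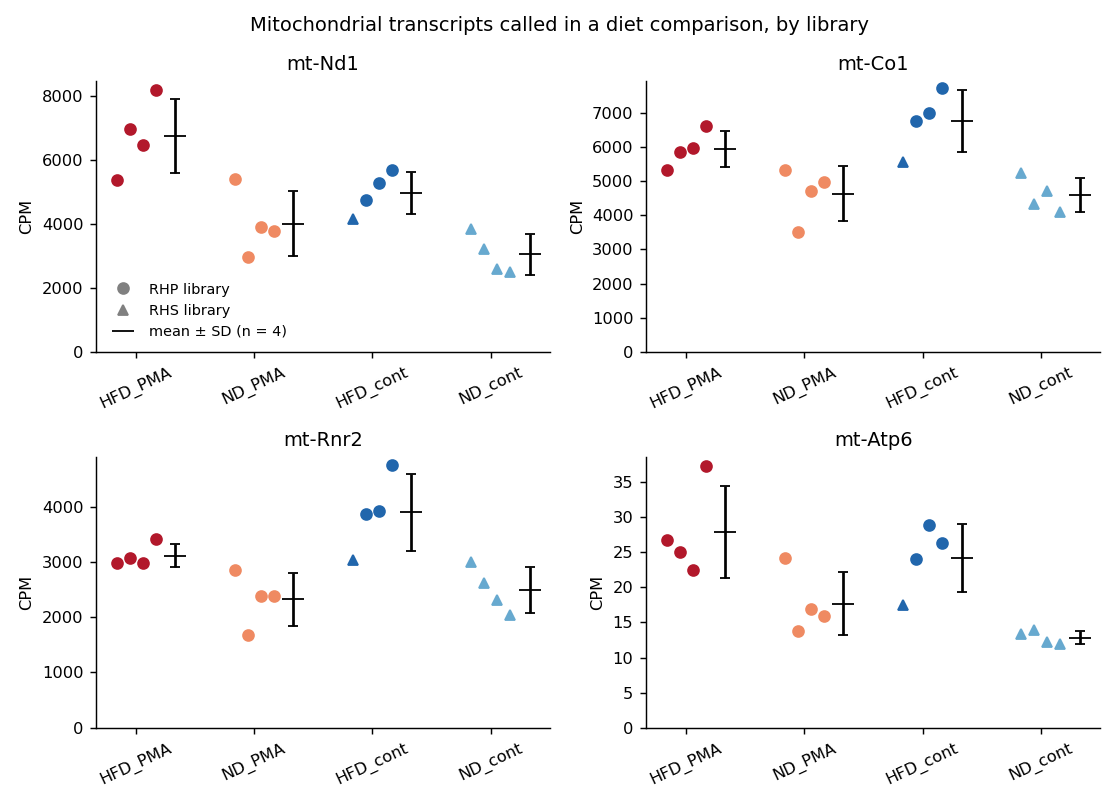
CPM of mt-Nd1, mt-Co1, mt-Rnr2 and mt-Atp6 in each library, RHP as circles and RHS as triangles, with group means ± SD in black. In untreated skin no HFD_cont library overlaps ND_cont for any of the 4, and HFD_cont replicate 1, the RHS triangle, is the lowest of its group.

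The comparison with PMA asked what the irritant did to these transcripts in each diet. In HFD mice 0 of 17 members were called, where 11.9% of all genes tested were (7.34% higher, 4.60% lower), and in ND mice 0 of 17, where 12.9% were (8.96% higher, 3.99% lower). No member had PMA-treated and untreated values apart without overlap, which held for 10.8% (higher) and 7.93% (lower) of all genes in HFD mice and for 10.6% and 6.25% in ND mice. In each diet 2 members had an unadjusted edgeR p under 0.05, and DESeq2 called 0 as well. The median log2 fold change was -0.0277 in HFD mice and 0.143 in ND mice, against -0.0167 and 0.00129 over all genes. Mt-Nd1 was the member with the smallest p in both: 6755 ± 1164 CPM in HFD_PMA and 4978 ± 664.4 CPM in HFD_cont (log2 fold change 0.44 ± 0.172, edgeR BH-adjusted p = 0.11), and 4018 ± 1009 CPM in ND_PMA and 3052 ± 628.8 CPM in ND_cont (0.40 ± 0.172, adjusted p = 0.148). With only the 8 libraries of HFD mice in the fit, mt-Nd1 passed (0.43, edgeR BH-adjusted p = 0.0369), and with RHP libraries only it did not (0.36, adjusted p = 0.243). Mt-Rnr2 went the other way in HFD mice, with 3113 ± 206.6 CPM in HFD_PMA and 3901 ± 699 CPM in HFD_cont (-0.33 ± 0.154, edgeR BH-adjusted p = 0.2).

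Whether PMA acted differently in the diets was asked by the interaction term. It called 0 of 17 members, where 0.00568% of all genes (1 gene) were called, and 0 had an unadjusted p under 0.05 by edgeR. DESeq2 also called 0 members. The estimates ran from -0.94 to 0.07 on the log2 scale, with a median of -0.169 and a median SE of 0.303. The ND part of the term, ND_PMA against ND_cont, sets RHP against RHS libraries, so the term shares the ID series in part. With the series as a covariate the median estimate was 0.134 and 0 of 17 members were called.

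Some ratios between members separated PMA-treated from untreated libraries and others did not. The ratios were chosen after the levels had been seen and carry no test. Counts of mt-Nd1 per count of mt-Rnr2 were 1.81, 2.268, 2.166 and 2.398 in HFD_PMA and 1.369, 1.229, 1.343 and 1.2 in HFD_cont libraries. In ND mice they were 1.896, 1.772, 1.637 and 1.586 in ND_PMA and 1.286, 1.231, 1.121 and 1.237 in ND_cont libraries. All 8 PMA libraries lay above all 8 untreated ones, and within HFD_cont the RHS library had the highest value. The PMA libraries are all RHP and the ND_cont libraries all RHS. In ND mice this and the ratios below therefore cannot tell PMA from the ID series. A ratio within a library does not depend on its scaling, but it does not say which of the genes changed.

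The ratio of all rRNA to all mRNA counts ran the other way. It was 0.1329 ± 0.0129 in HFD_PMA and 0.1841 ± 0.0103 in HFD_cont libraries, and 0.1469 ± 0.00943 in ND_PMA and 0.1769 ± 0.00684 in ND_cont libraries (SD, n = 4 each), without overlap in either diet. Ratios that overlapped in both diets were mt-Co1 per mt-Nd5 (5.667 to 6.324 in HFD_PMA and 5.518 to 6.97 in HFD_cont, 5.352 to 7.057 in ND_PMA and 4.674 to 5.663 in ND_cont), mt-Nd5 per mt-Nd6 and mt-Rnr2 per mt-Rnr1. The ratio of mt-Nd1 to mt-Nd5 did not overlap within a diet (5.733 to 7.538 in HFD_PMA and 3.878 to 5.261 in HFD_cont, 4.517 to 6.014 in ND_PMA and 2.712 to 4.17 in ND_cont), but ND_PMA overlapped HFD_cont. Counts of mt-Nd1 per count of mt-Co1 were 0.7603 to 1.241 in PMA-treated and 0.5498 to 0.7548 in untreated libraries, without overlap. The ratio of mt-Cytb to mt-Nd5 did not overlap in HFD mice (7.555 to 9.852 in HFD_PMA and 5.815 to 7.535 in HFD_cont). In ND mice that ratio overlapped (6.141 to 8.508 in ND_PMA and 4.201 to 7.115 in ND_cont). Within the mRNAs, mt-Nd1 made up 28.05% ± 1.24 of counts in HFD_PMA and 24.7% ± 0.54 in ND_PMA, 23.23% ± 0.92 in HFD_cont and 21.07% ± 1.38 in ND_cont libraries. Its share did not overlap between HFD_PMA (26.91% to 29.4%) and ND_PMA (23.99% to 25.23%). Mt-Co1 was the counterpart, at 24.87% ± 1.27 in HFD_PMA, 28.91% ± 2.96 in ND_PMA, 31.54% ± 0.338 in HFD_cont and 32.13% ± 2.75 in ND_cont libraries. Mt-Cytb stayed the largest fraction in each group, between 33.21% and 36.97% on average. The mt-Nd5 fraction was 4.145% ± 0.38 in HFD_PMA, 4.856% ± 0.562 in ND_PMA, 5.236% ± 0.498 in HFD_cont and 6.339% ± 0.983 in ND_cont libraries.

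**Figure D5:**
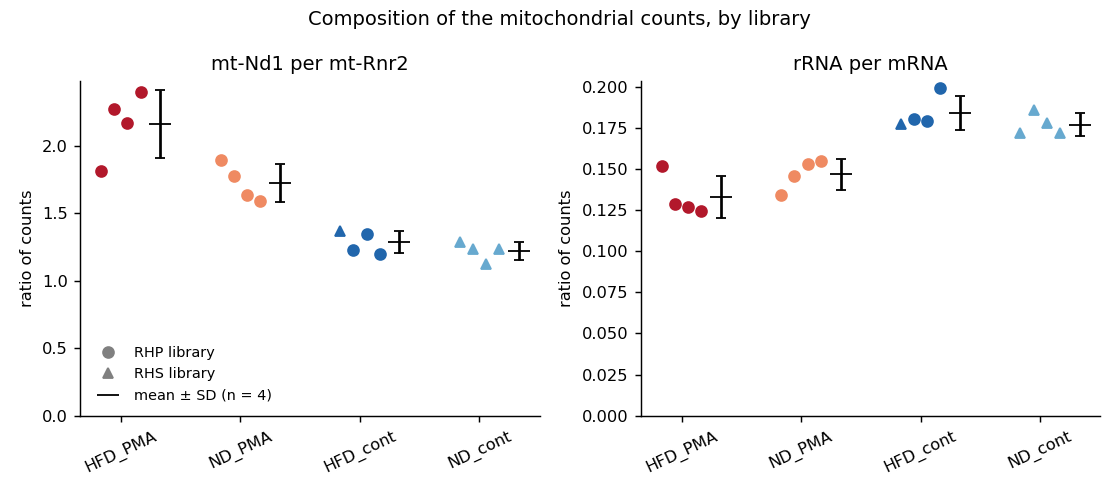
Counts of mt-Nd1 per count of mt-Rnr2 (left) and rRNA counts per mRNA count (right) in each library, RHP as circles and RHS as triangles, with group means ± SD in black. All 8 PMA libraries are above the untreated ones on the left (1.586 to 2.398 against 1.121 to 1.369) and below them on the right.

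The nuclear copies were read as a second view of the chromosome 1 stretch. The 13 copies in the count table took 0.0164% ± 0.0012 of counts in HFD_PMA, 0.0128% ± 0.0021 in ND_PMA, 0.0171% ± 0.0043 in HFD_cont and 0.0093% ± 0.0005 in ND_cont libraries (SD, n = 4). In untreated skin, where 2.87% of all genes tested were called higher, 5 of the 10 copies tested were higher in HFD mice, among them Gm29216 (log2 fold change 0.92 ± 0.204, edgeR BH-adjusted p = 0.0141) and the chromosome 2 copy Gm13340 (0.90 ± 0.174, adjusted p = 0.00506). None of the 10 was called in PMA-treated skin. Within HFD_cont the share was 0.0186% to 0.0199% in the 3 RHP libraries of HFD_cont and 0.0107% in the RHS library, beside 0.0088% to 0.0098% in ND_cont. Per 100 mitochondrial counts the copies had 0.591 to 0.751 counts in the 11 RHP libraries and 0.445 to 0.594 in the 5 RHS libraries. With the copies' reads added to their mitochondrial genes, 5 of 17 members were called in untreated skin, mt-Co3 being the one added (log2 fold change 0.79, edgeR BH-adjusted p = 0.0215).

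Nuclear genes that serve this genome were taken from fixed lists. Of 17 genes of mitochondrial DNA transcription and replication, among them the polymerase gene Polrmt and Tfam, which packs and activates this DNA, 0 were called in any of the 4 comparisons. With diet, 2.20% (PMA-treated) and 3.93% (untreated) of all genes tested were called, and 0 of 17 is near these shares. With PMA, 11.9% (HFD) and 12.9% (ND) of all genes were called. Of 76 tested proteins of the mitochondrial ribosome, 1 was called higher in HFD mice in PMA-treated skin and 4 in untreated skin, and none lower. Over all genes tested, 0.943% and 2.87% were called higher in these comparisons. Their summed level was 2316 to 2462 CPM in HFD_PMA and 1925 to 2311 CPM in ND_PMA libraries, and 1964 to 2068 CPM in HFD_cont and 1462 to 1763 CPM in ND_cont libraries, where the RHS library HFD_cont replicate 1 had 2043 CPM. Mrpl18 was called in both, with 50.9 ± 6.3 CPM in HFD_PMA and 34.7 ± 0.806 CPM in ND_PMA (log2 fold change 0.55 ± 0.144, edgeR BH-adjusted p = 0.0491), and 35.55 ± 3.34 CPM in HFD_cont and 23.62 ± 3.42 CPM in ND_cont (0.59 ± 0.147, adjusted p = 0.0269). Of 27 mitochondrial RNA processing and stability genes 1 was higher with HFD in untreated skin (Rexo2, 0.58 ± 0.155, edgeR BH-adjusted p = 0.0386). Of 16 mitochondrial chaperones and proteases 1 was higher there (Phb2, 0.43 ± 0.117, adjusted p = 0.0415). In PMA-treated skin 1 of 17 regulators of mitochondrial biogenesis was higher with HFD (Nfe2l2, 0.57 ± 0.138, adjusted p = 0.0331). These lists and the assembly factors of the respiratory complexes had no other call with the diet.

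Nuclear subunits of the complexes that also hold mitochondrially encoded subunits were counted in the same way. In untreated skin 1 of 36 for complex I (Ndufv2), 1 of 9 for complex III (Cyc1), 0 of 15 for complex IV and 2 of 16 for complex V (Atp5d and Atp5c1) were higher in HFD mice, where 2.87% of all genes tested were. In PMA-treated skin these were 0, 0, 0 and 1 (Atp5d), where 0.943% of all genes were higher, and no subunit was lower in HFD mice in either. Atp5d, encoding the delta subunit of the ATP synthase, had 174.5 ± 18.7 CPM in HFD_PMA and 123.4 ± 19.6 CPM in ND_PMA (log2 fold change 0.50 ± 0.126, edgeR BH-adjusted p = 0.041). Complex II has no mitochondrially encoded part, and 0 of its 4 subunits were called with the diet. Their median log2 fold change was 0.438 in untreated and 0.297 in PMA-treated skin, with 3 of 4 estimates above 0 in each. The median log2 fold changes of the nuclear subunits in untreated skin were near 0 for complex I and -0.00438 for complex IV, 0.103 for complex III and 0.271 for complex V, against 0.559 for the 13 mitochondrial mRNAs.

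The same lists were counted for PMA, where 7.34% of all genes tested were called higher and 4.60% lower in HFD mice, and 8.96% higher and 3.99% lower in ND mice. Of 16 mitochondrial chaperones and proteases, 6 were higher with PMA in HFD mice and 7 in ND mice, 0 lower. Hspa9, the mitochondrial Hsp70, had 469.2 ± 35 CPM in HFD_PMA and 307.3 ± 3.81 CPM in HFD_cont (log2 fold change 0.61 ± 0.108, edgeR BH-adjusted p = 0.000876). Ribosomal proteins of the organelle were higher with PMA in 6 of 76 cases in HFD mice and 13 of 76 in ND mice, and none was lower. Among 27 genes of mitochondrial RNA processing and stability, 6 and 5 were higher, and 1 was lower in ND mice. Rexo2, a mitochondrial oligoribonuclease that clears short RNAs, had 95.54 ± 3.25 CPM in HFD_PMA and 63.23 ± 5.07 CPM in HFD_cont (0.60 ± 0.153, edgeR BH-adjusted p = 0.0139). Of 35 assembly factors of the respiratory complexes 3 were higher in each diet, and of 17 regulators of mitochondrial biogenesis 0 and 1 were higher and 1 and 0 lower. Complex III had 3 of 9 nuclear subunits higher in each diet (Cyc1, Uqcrc1 and Uqcrc2). In HFD and ND mice, complex I had 0 and 5 of 36 higher, complex II 1 and 2 of 4, and complex V 1 and 3 of 16. Complex IV had 0 of 15 higher in each diet and 1 lower in ND mice. Markers of other cell types moved with PMA as well. Skeletal muscle markers summed to 4955 to 5997 CPM in HFD_PMA and 4500 to 10420 CPM in HFD_cont libraries, with 4 of 10 called lower, and to 5524 to 11780 CPM in ND_PMA and 6042 to 15760 CPM in ND_cont libraries, with 0 called. White adipocyte markers summed to 123.8 to 191.6 CPM in HFD_PMA and 233.5 to 389.6 CPM in HFD_cont libraries, and to 178.1 to 343.2 CPM in ND_PMA and 386.7 to 550.5 CPM in ND_cont libraries, with 4 of 5 called lower in each diet. Neutrophil markers summed to 256.6 to 1163 CPM in HFD_PMA and 23.35 to 55.6 CPM in HFD_cont libraries, and to 58.14 to 191.9 CPM in ND_PMA and 9.01 to 19.53 CPM in ND_cont libraries, with 3 of 4 tested called higher in each diet. Among keratinocyte markers 1 of 5 was higher and 1 lower with PMA in HFD mice, and 3 were higher in ND mice. Their part in the counts above and in the ratios between members was not tested. The ND values share the ID series with PMA and cannot be told apart from it: 2279 genes were called there (1577 higher, 702 lower; 1309 and 942 with unadjusted library totals), and 453 with the series as a covariate.

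Outside the mitochondrial genome, the genes whose log2 CPM over the 16 libraries was most like that of mt-Co1 were Rpl4, a protein of the large cytosolic ribosomal subunit, with a Pearson correlation of 0.905, Abhd12b with 0.891 and the predicted gene Gm5835 with 0.879. Among the members, mt-Rnr2 and mt-Nd4 had a higher correlation with it than Rpl4 had. The groups, their ID series and the scaling are shared by all of these genes.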

How the data were processed

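Counts are whole numbers as deposited by the authors in a single gene table for all 16 libraries. Per the labels' protocols, RNA was made into cDNA by SMART-Seq2 with ERCC spike-ins and sequenced as paired reads of 151 bases. Per the submitters' processing notes, STAR 2.3 and featureCounts 1.5 were used, with GRCm38 and mm10 as builds. Their strand and multiple-match settings are not stated. No ERCC row is in the table (0 entries). Gene lengths were deposited as another column. A level of 1 CPM corresponds to 7.74 to 15.6 counts before scaling. Reads carry no molecular identifiers, so intervals cover counting error only.

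Genes were kept with filterByExpr (minimum count 10, minimum total 15) by group and tested with edgeR 4.0.16 (R 4.3.3; TMM, quasi-likelihood, robust) in 1 fit of 4 group means over 16 libraries. SEs were derived from the fold change and its F statistic. Alternatives were DESeq2 1.42.0, other size factors and filters, the replicate number or ID series as a covariate, subsets and each library left out. Libraries of a group differed by more than counting noise (chi-square per degree of freedom at least 9.4). Nuclear copies are GENCODE M21 transcripts aligned with Biopython 1.88 over at least 200 bases at 90% identity or more. The fit was also run on simulated counts that held no effect of the ID series, so that run does not bear on the series. The members and gene lists were chosen with earlier results of these data known. All members are accounted for, and library values are given for those called. From other lists some called genes with a mean CPM of at least 5 were named, not always those with the largest change.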

Additional observations from a re-analysis of the deposited data

Results flagged for a closer look

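In 72 groups of 4 values (17 tested members and the summed share in each of 4 groups), 2 had a library set far apart from the other 3 relative to the range of its group, where chance gives about 1 in 20. Mt-Nd6 in HFD_PMA replicate 4 was at 116.9 CPM, against 81.72 to 86.58 CPM in the other 3 libraries of that group. Mt-Cytb in HFD_cont replicate 1 was at 5751 CPM, against 7507 to 7713 CPM in the other 3. That library is the single HFD library of the RHS series, whose part in the value was not tested.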

How the results depend on the processing

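The diet difference in the share of library counts kept its direction under every alternative run for it, and the members' calls did not. For untreated skin none of these alternatives for the share took the ID series into account. The RHS library HFD_cont replicate 1, at 2.094%, lay inside the ND_cont range of 1.483% to 2.183%. With DESeq2, 4 members were called in PMA-treated skin, and 887, 1211 and 24 genes in the diet comparisons (PMA-treated, untreated) and the interaction, against 387, 691 and 1. In PMA-treated skin 2 members were called without a low-count filter and 2 with CPM of at least 5 in 4 libraries, and 0 (175 genes) with only the 8 libraries compared, which also called 1 member for PMA in HFD mice. The interaction called 2 genes without a filter, with the stricter one, with the replicate block and with the ID series. With the ID series as a covariate the untreated diet comparison called 0 members and 179 genes and the PMA effect in ND mice 453 genes against 2279, and the RHS libraries alone, added after the data were seen, called 0 members and 168 genes. The cause of these changes was not tested.

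Leaving out 1 library gave 0 to 3 members and 116 to 436 genes for diet in PMA-treated skin, 0 to 5 and 336 to 889 for diet in untreated skin, 0 members and 1205 to 2469 genes for PMA in HFD mice, 0 and 1763 to 2209 for PMA in ND mice, and 0 and 1 to 4 for the interaction. For PMA in ND mice the split of calls into higher and lower was 1577 to 702, and 1309 to 942 with unadjusted library totals. The sign of some uncalled members turned in PMA-treated skin: mt-Rnr1 with the replicate block (-0.0008783) and without HFD_PMA replicate 1 (-0.1554) or ND_PMA replicate 3 (-0.03891), mt-Nd3 without HFD_PMA replicate 2 (0.1101) or 4 (0.00723) or ND_PMA replicate 3 (0.07401) or 4 (0.1318), and mt-Nd4l without HFD_PMA replicate 4 (-0.01306). With 1 library left out these 3 estimates ran from -0.1554 to 0.1867 (mt-Rnr1), -0.2413 to 0.1318 (mt-Nd3) and -0.01306 to 0.5478 (mt-Nd4l). Mt-Atp6 under PMA in ND mice turned with the ID series (-0.1288).

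Same-numbered libraries of different groups had correlated deviations of -0.067 to 0.202 (24 pairs, median 0.013) and 8 of 16 libraries were most like their own number, and since the labels tie no number to a shared animal, litter or day and not every pair was above 0.1, the numbers were not taken as pairs. With the replicate block 1 member was called for diet in PMA-treated skin (358 genes), 4 in untreated skin (669 genes), and 0 for PMA in HFD mice (1967 genes) and in ND mice (2192 genes). Few counts lie behind the tRNAs (at most 69 in a library together), mt-Atp8 (at most 23) and mt-Nd4l (at most 18), and shared reads with nuclear copies add to what is unknown of mt-Nd4l.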
